A study of Homo sapiens with 12 samples.

Results

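The 6 libraries described here are 3 of the F1295A line and 3 of the parental TKO line, out of 12 libraries in the series. They were chosen by their labels alone, as the columns named TKO-F1295A and TKO. TKO cells derive from KMS-11, a human multiple myeloma line, and carry the genotype label KMS-11 WHSC1(+/-) in all 12 libraries, so the control has that genotype too. The TKO group had no vector. The F1295A line carried a vector expressing NSD2 with the substitution p.F1295A, the WT line a vector expressing unaltered NSD2 and the D1240A line a vector expressing NSD2 p.D1240A, with 3 biological replicates each. The WT libraries set the level that each F1295A gene could reach, miss or exceed. No group with a vector lacking NSD2 enters this comparison, so carrying a vector and expressing NSD2 cannot be told apart in any difference from TKO. The labels do not state the vector's promoter or how many clones each line holds, and p-values measure only the spread between these libraries.

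NSD2, also called WHSC1 or MMSET, is a histone methyltransferase that places dimethylation on lysine 36 of histone H3 through its SET domain. In myeloma with the t(4;14) translocation, which KMS-11 carries, the gene is placed under the control of the immunoglobulin heavy chain locus and the protein is overproduced. Spread of H3K36 dimethylation over the genome is known to displace the repressive H3K27 trimethylation mark of the Polycomb complex PRC2, and loss of NSD2 in such cells lowers growth and adhesion. The C-terminal part of the protein, beyond the SET domain, holds zinc-binding PHD-type modules, and both substitutions fall there.

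The places of both substitutions in the NSD2 coding sequence are shown first, because they define the lines that were compared. The runs are reference sequence of the GENCODE 29 transcript ENST00000382891 (GRCh38, plus strand), whose coding part holds 1365 codons, and not the sequence of the vectors. Capitals mark the codon that each line has changed. The D1240A codon lies at chromosome 4, 1976571 to 1976573, in exon 21 of 22, and the F1295A codon at 1978694 to 1978696, in exon 22, the last exon, both in coding sequence.
NSD2 around the D1240A codon: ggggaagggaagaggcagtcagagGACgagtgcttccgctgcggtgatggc
NSD2 around the F1295A codon: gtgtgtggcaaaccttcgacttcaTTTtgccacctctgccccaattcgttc

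NSD2 itself was measured at 59.3, 59.0 and 63.1 FPKM in the 3 TKO libraries and at 173, 162 and 160 in the 3 F1295A libraries. FPKM are fragments per kilobase of gene, scaled to the size of the library, and were rescaled here between libraries. The WT libraries held 190, 189 and 196 FPKM. All F1295A libraries thus lay above all TKO libraries and below all WT libraries. The log2 difference of F1295A from TKO was 1.44 ± 0.04 (SE, limma on log2(FPKM + 0.5), adjusted p = 1.55e-10). Against WT it was -0.215 ± 0.039 (adjusted p = 0.0138), and that call was lost without F1295A replicate 2 (adjusted p = 0.0662), F1295A replicate 3 (0.0585), WT replicate 1 (0.0517) or WT replicate 3 (0.0610). Without rescaling of the libraries the adjusted p was 0.204. NSD2 RNA in D1240A was higher than in either, at a mean of 252 FPKM. The part that the amount of NSD2 RNA has in the differences between F1295A and WT was not tested. The table gives 1 value per gene, so vector and endogenous NSD2 RNA were not separated.

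Facts common to the whole table are few. The depth of sequencing is unknown, since the table holds FPKM only. Each library held 11849 to 12237 features at 1 FPKM or more. D1240A replicate 2 stood apart, with 52.7% of its summed FPKM in ribosomal RNA features against 1.66% to 2.47% in the other 11 libraries. It enters the D1240A means and the comparison with D1240A directly, and the other comparisons through the filter and the shared estimate of spread. The labelled cell type, plasma cell, was checked on 10 markers, and all 10 reached 1 FPKM in at least 1 TKO or F1295A library. Their summed deposited FPKM was 2520 to 2730 in TKO and 4720 to 5100 in F1295A, most of it JCHAIN, the joining chain of secreted antibody. SDC1, the surface proteoglycan CD138 that defines plasma cells, was low in TKO (4.04 ± 0.24 FPKM, SD, n = 3) and lower in F1295A (0.252 ± 0.101). Deposited means also fell for CD38 (0.887 to 0.28 FPKM), MZB1 (268 to 232) and POU2AF1 (75.4 to 67.1). SDC1 and CD38 thus averaged under 1 FPKM in F1295A. Means of TNFRSF17, PRDM1, IRF4, XBP1, JCHAIN and SLAMF7 were higher there than in TKO. Markers of 7 other cell types summed to 3.77 FPKM or less in every TKO and F1295A library. CD22, MS4A1 and PAX5 of B cells, NKG7, FCGR3A, KRT19, COL1A2, COL3A1, LUM, VWF and CDH5 were listed at 0 in all 6. In bulk RNA, fewer cells of a type and less RNA per cell cannot be told apart.

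Expression of F1295A NSD2 went with differences in nearly as many genes as expression of the WT protein. Of 14411 tested genes, 6578 (45.6%) were called between F1295A and TKO at an adjusted p under 0.05, 3439 higher (23.9%) and 3139 lower (21.8%) in F1295A. WT differed from TKO in 7161 genes (49.7%). The median absolute log2 difference from TKO over all tested genes was 0.204 in F1295A and 0.226 in WT. Most calls were small: 748 genes differed at least 2-fold in F1295A, 478 of them higher and 270 lower, against 948 in WT. In 8022 genes (55.7%) the 3 F1295A libraries all lay on one side of the 3 TKO libraries. F1295A and WT share the TKO libraries as their control, so the likeness of both counts is not independent evidence. F1295A and WT themselves differed in 390 genes (2.71%), 129 higher in F1295A (0.895%) and 261 lower (1.81%), of which 11 differed at least 2-fold. On the values as deposited 89 genes differed between them, 17 higher and 72 lower in F1295A, so that the higher share was 19.1% in place of 33.1%. Between F1295A and D1240A 878 genes were called (6.09%), or, with 1 library left out, 374 without D1240A replicate 2, 418 without D1240A replicate 3, 309 without F1295A replicate 2 and 351 without F1295A replicate 3.

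Genes called from TKO in at least 1 of the lines were placed in a level class by the calls of F1295A against TKO, WT against TKO and F1295A against WT. A gene reached the WT level where both lines differed from TKO in the same direction and were not called apart. By that rule 5503 genes (38.2%) reached it. A call that is missed does not show equal levels. In 5089 of these genes, 92.5%, the 95% interval of the difference between F1295A and WT lay within 1.5-fold in either direction. That bound does not show equal levels either, as it is wider than their median log2 difference from TKO. That median was 0.46 for the higher and -0.38 for the lower genes. A gene fell short where F1295A moved in the WT direction but was called nearer to TKO, which held for 230 genes (1.6%), 165 of them higher and 65 lower than TKO. The median of these genes covered 62.3% of the WT log2 difference, with quartiles at 49.5% and 72.3%. The 1.5-fold bound held for 84 of the 165 higher and 46 of the 65 lower short genes as well. A gene exceeded WT where F1295A was called farther from TKO, in 42 genes (0.291%). A gene missed where WT was called from TKO, F1295A was not, and the lines were called apart, in 60 genes (0.416%). Another 3 genes (0.0208%) moved in opposite directions, and 48 (0.333%) were moved in F1295A alone by the same 3 calls. In 2075 genes (14.4%) 1 of the lines was called from TKO and the other not, without a call between them, and these were left undecided. The other 6450 genes were called from TKO in neither line and have no level class. Of the 620 genes that WT raised at least 2-fold, F1295A reached the level in 494 and fell short in 102. Of the 328 that WT lowered as much, it reached the level in 272 and fell short in 27. The counts that rest on F1295A against WT depended on single libraries. Genes short of WT numbered 92 without WT replicate 1, 107 without WT replicate 3, 135 without WT replicate 2, 140 without F1295A replicate 1, 100 without F1295A replicate 2 and 118 without F1295A replicate 3. Those fits had fewer F1295A or WT libraries to compare. Without D1240A replicate 2, the library high in ribosomal RNA, the number rose to 283.

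**Figure D1:**
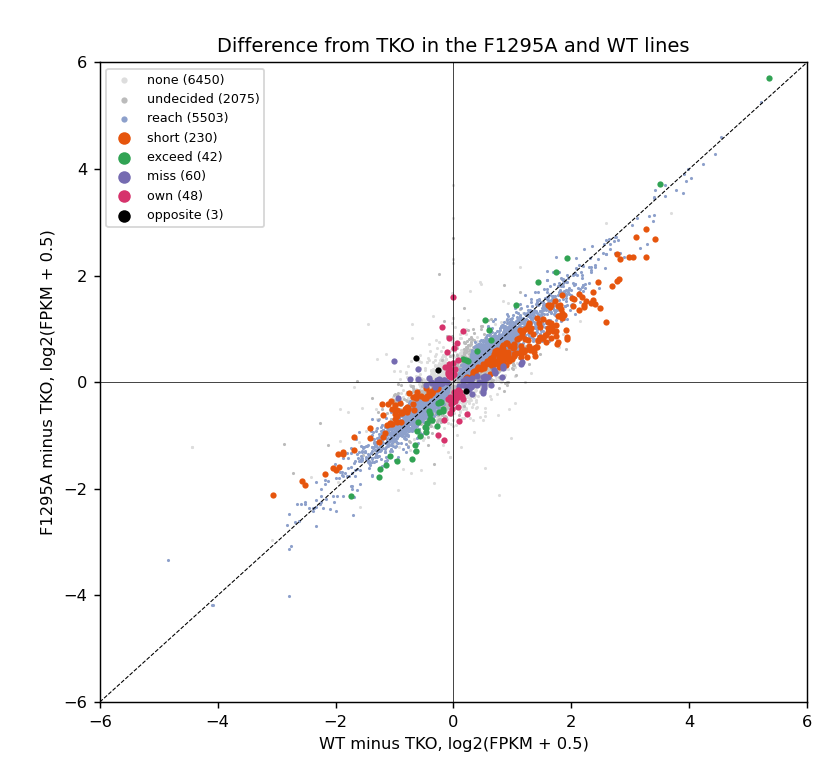
Each point is 1 of 14411 tested genes, with its log2 difference WT minus TKO on the x axis and F1295A minus TKO on the y axis, coloured by level class. Points lie along the dashed line of equal difference, with 230 genes short of it and 42 beyond it, and both axes share the TKO libraries.

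Most of the genes with the largest rise from TKO were below 1 FPKM there, and most were not called apart from WT in F1295A. POPDC3, a membrane protein of the Popeye family, was at 0.279, 0.193 and 0.204 FPKM in TKO, at 27.4, 26.6 and 27.4 in F1295A and at 26.6 ± 0.19 in WT. Its log2 difference from TKO was 5.25 ± 0.05 (limma adjusted p = 3.21e-14). The F1295A libraries sat more than 20 FPKM above TKO and within 1 FPKM of the WT mean. SCN3A, a voltage-gated sodium channel, rose from 0.0772 ± 0.0094 to 13.6 ± 1.4 FPKM, with 12.96 ± 0.54 in WT. GYPC, glycophorin C of the red cell membrane, rose from 0.238 to 13.8 FPKM (WT 15.5). PLOD2, the lysyl hydroxylase that prepares collagen for cross-links, rose from 0.106 to 9.80 FPKM (WT 10.9). BAIAP2, an adaptor of actin-rich protrusions, was already present in TKO at 3.79 ± 0.65 FPKM and stood at 63.4 ± 3.9 in F1295A and 63.5 ± 2.1 in WT. MAGEA3 and HBE1 were listed at 0 in all 3 TKO libraries, so no fold is given. MAGEA3, a cancer-testis antigen, was at 7.45, 7.65 and 7.51 FPKM in F1295A, and HBE1, the embryonic beta-like globin, at 6.88, 7.22 and 5.72.

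LRMP and CDH17 rose past the WT level. LRMP, a lymphoid protein of the endoplasmic reticulum, was at 0, 0.0579 and 0.0291 FPKM in TKO, at 25.5, 28.3 and 27.1 in F1295A and at 21.4, 20.7 and 21.1 in WT. The 3 groups did not overlap, and F1295A exceeded WT by 0.35 ± 0.06 on the log2 scale (limma adjusted p = 0.00765). CDH17, a cadherin of the liver and intestine, was at 6.76, 6.89 and 6.50 FPKM in TKO, at 95, 96.5 and 91.5 in F1295A and at 79.7, 82.5 and 80.6 in WT. Its excess over WT was 0.22 ± 0.03 (limma adjusted p = 0.00743). PCDH10, a protocadherin, also exceeded WT, at 11.9 ± 0.3 FPKM against 9.02 ± 0.13, from 5.80 ± 0.35 in TKO. Cadherins and protocadherins join cells by calcium-dependent contacts. Of 18 tested genes of their list, which also holds the catenin JUP, 11 rose and 4 fell from TKO in F1295A (83.3% called, against 45.6% over all genes). By level class 13 reached the WT level, and CDH17 and PCDH10 exceeded it. The median difference from TKO was 0.53, against -0.001 over all genes. CDH2, neural cadherin, rose from 1.03 to 9.18 FPKM, and DSG2, a desmosomal cadherin, from 21.2 to 30.8. JUP, plakoglobin, the catenin that ties desmosomal cadherins to the cytoskeleton, fell from 12.3 to 4.01 FPKM.

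The genes lowered most were likewise at the WT level. APOBEC3G, a cytidine deaminase that restricts retroviruses, was at 10.2, 10.2 and 9.76 FPKM in TKO and at 0.111, 0.0404 and 0.10 in F1295A, with 0.118 ± 0.093 in WT. Every F1295A library was under 0.2 FPKM for this gene. All 5 tested APOBEC3 genes fell and reached the WT level by the rule of calls, among them APOBEC3C (69.2 to 35.3 FPKM) and APOBEC3B (26.5 to 16.7 FPKM). Over all genes 21.8% were called lower and 38.2% reached WT. Their median log2 difference from TKO was -0.71 in F1295A and -1.07 in WT. Over fits without 1 library 0 to 1 of them fell short. The APOBEC3 genes lie side by side on chromosome 22 and share sequence, so reads may be split between them. ADTRP, an endothelial regulator of coagulation, fell from 22.1 to 0.754 FPKM, and HBD, the delta globin, from 8.18 to 0.540. ITM2C, an abundant transmembrane protein of plasma cells, was at 713, 710 and 738 FPKM in TKO and at 142, 137 and 143 in F1295A. Its log2 difference of -2.36 ± 0.03 was beside -2.38 in WT. CD9, a tetraspanin of the cell surface, fell from 26.6 to 4.75 FPKM (WT 5.87), and CSF2RB, the shared beta chain of the GM-CSF, IL-3 and IL-5 receptors, from 6.16 to 0.868 (WT 0.562).

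MHC class II presentation had the largest share of genes short of the WT level among the 30 lists, 12 of 19. Class II molecules are alpha-beta pairs (HLA-DR, HLA-DQ, HLA-DP) that show peptides to helper T cells. CD74 is the invariant chain that guards their groove, HLA-DM loads the peptide, HLA-DO restrains HLA-DM, and CIITA is the coactivator that turns the genes on together with the RFX proteins. B cells express these genes strongly and plasma cells shut them down. The pair of motifs behind this shared control is shown for the 4 tested list members in which it was found. Capitals mark the core of the X box, ACNGATG, and of the Y box, ATTGG, searched on both strands, in that order in the strand read, 10 to 35 bases apart in the 250 bases before the start. The pair was found in 51 of 35116 RefSeq promoters (0.145%) and in 4 of the 16 tested class II list members matched by symbol. A member was counted as a gene, with a match in any of its promoters, so its share and that of single promoters are in unlike units. All 4 were short of WT, as were 10 of the 16 matched members. A match is a description of letters, and HLA-DRA and CIITA had no entry by symbol. All 4 lie on the minus strand of chromosome 6 (GRCh38.p14): HLA-DRB1 at 32589860 to 32589953, HLA-DRB5 at 32530343 to 32530436, HLA-DQB1 at 32666711 to 32666804 and HLA-DMA at 32953142 to 32953236.
HLA-DRB1: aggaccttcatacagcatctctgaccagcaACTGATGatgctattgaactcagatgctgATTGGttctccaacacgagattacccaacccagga
HLA-DRB5: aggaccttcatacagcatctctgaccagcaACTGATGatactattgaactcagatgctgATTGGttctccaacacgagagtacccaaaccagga
HLA-DQB1: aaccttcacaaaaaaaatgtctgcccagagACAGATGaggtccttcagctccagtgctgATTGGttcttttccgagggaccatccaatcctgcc
HLA-DMA: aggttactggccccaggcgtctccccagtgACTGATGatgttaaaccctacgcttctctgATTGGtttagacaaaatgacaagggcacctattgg

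Of the 19 tested class II genes, 13 fell and 3 rose from TKO in F1295A, and 13 were called above WT with none below it. These calls were 84.2% of the list from TKO and 68.4% from WT, against 45.6% and 2.71% over all genes. By level class 12 fell short of WT (1.6% over all genes), 3 reached it and 1 moved in F1295A alone. The median log2 difference from TKO was -0.30 in F1295A and -0.63 in WT, against a median of -0.001 over all genes in F1295A. CIITA, the coactivator, was at 73.6, 71.5 and 69.2 FPKM in TKO, at 39.8, 38.5 and 43.6 in F1295A and at 32.1, 32.7 and 32.7 in WT. The F1295A libraries lay between the others without overlap, nearer to WT (log2 difference -0.81 ± 0.05 from TKO and 0.32 ± 0.05 from WT, limma adjusted p = 8.74e-08 and 0.00552). HLA-DRB1 was at 288, 295 and 298 FPKM in TKO, at 219, 229 and 225 in F1295A and at 151, 165 and 152 in WT. It therefore stood nearer to TKO than to WT, by -0.39 ± 0.04 and 0.53 ± 0.04 (limma adjusted p = 1.11e-05 and 7.32e-05). HLA-DQA1 gave 113, 119 and 122 FPKM in TKO, 93.1, 94.9 and 89.7 in F1295A and 58.1, 59.2 and 52.7 in WT. HLA-DQB1 gave 72.4 ± 3.3, 47.3 ± 3.1 and 31.2 ± 2.3 in the same order. CD74, the most abundant member, fell from 4844 ± 116 to 3251 ± 61 FPKM, with 2643 ± 50 in WT. HLA-DRA fell from 1733 to 1403 FPKM (WT 1115), HLA-DMA from 99.1 to 67.3 (WT 53.1) and HLA-DMB from 60.5 to 39.7 (WT 29.98).

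HLA-DPA1 and HLA-DPB1 moved least: HLA-DPA1 was at 265 ± 9 FPKM in TKO, 247 ± 2 in F1295A and 191 ± 8 in WT, and its fall from TKO in F1295A was called narrowly (limma adjusted p = 0.0469). These falls and that of HLA-DQA2 were lost without TKO replicate 2, TKO replicate 3, F1295A replicate 1 or F1295A replicate 3. Those of HLA-DPA1 and HLA-DPB1 were also lost without F1295A replicate 2, with no filter, with the replicate block and with window medians removed. The fall of HLA-DQB2, also counted as short, was lost in 15 alternatives, among them those without any 1 TKO library. Over all fits without 1 library the count of falling class II genes was 10 to 13 and the count short of WT 9 to 12. The count above WT was 13 or 14. HLA-DOA moved the other way. It was at 7.90, 9.15 and 9.16 FPKM in TKO, at 13.8, 12.3 and 13.4 in F1295A and at 8.93, 7.51 and 7.69 in WT. F1295A was thus above both other groups without overlap, by 0.57 ± 0.08 over TKO and 0.68 ± 0.08 over WT (limma adjusted p = 7.83e-05 and 0.000965). RFX5, a subunit of the RFX complex, fell to the WT level (290 to 218 FPKM, WT 204), RFXANK, another subunit, rose (95 to 124, WT 116), and RFXAP, the last subunit, was not called (2.73 ± 0.24 and 2.34 ± 0.30). CTSS, the protease that trims the invariant chain, rose from 103 to 157 FPKM. D1240A means stood near TKO for several of these genes, at 293 FPKM for HLA-DRB1, 118 for HLA-DQA1 and 65.6 for CIITA. On the values as deposited 4 class II genes, not 13, were called above WT. HLA genes are close in sequence, as HLA-DRB1 and HLA-DRB5 above show, and vary between people, so reads may be shared among them and levels of single HLA genes are uncertain. In class I, which shows peptides to killer T cells, 18 genes were tested and 2 were called above WT (11.1% called apart from WT, against 2.71% over all genes). HLA-B fell short (464 to 429 FPKM, WT 373) and HLA-E missed (122 and 120 FPKM, WT 105).

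**Figure D2:**
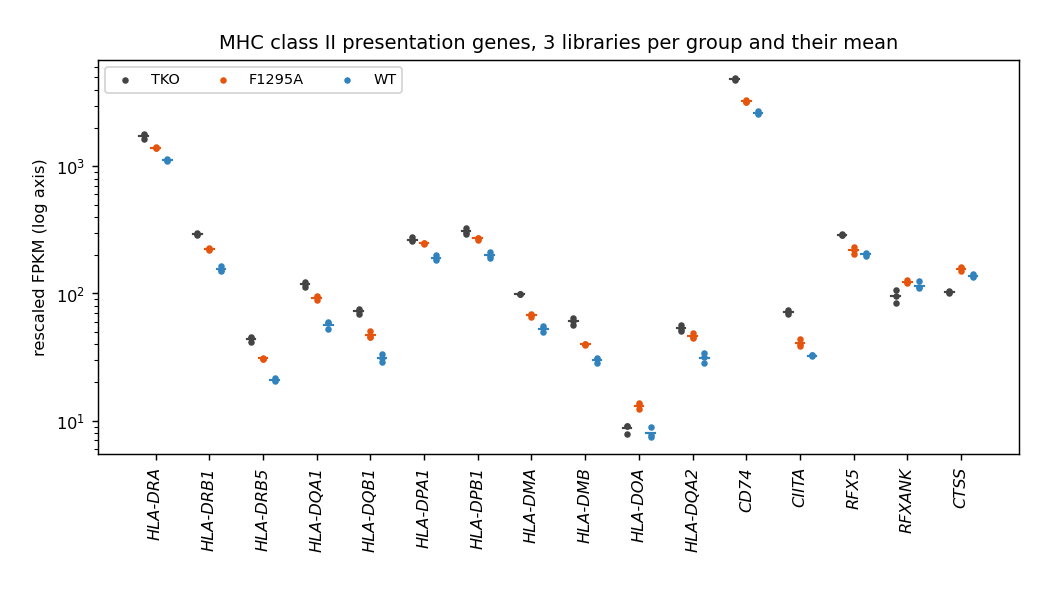
Rescaled FPKM on a log axis for 16 genes of MHC class II presentation, with 1 point per library and a bar at the mean of the 3 libraries of TKO, F1295A and WT. F1295A means lie between TKO and WT for the HLA-DR, HLA-DQ, HLA-DP and HLA-DM genes, CD74 and CIITA, and above both for HLA-DOA.

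The ATF4 and unfolded protein response genes rose broadly, mostly to the WT level. ATF4 is the transcription factor that turns on amino acid synthesis, uptake and transfer RNA charging when translation initiation is restrained, and the unfolded protein response enlarges the folding machinery that antibody-secreting cells depend on. Of 54 tested genes, 90.7% were called from TKO in F1295A, against 45.6% over all genes. Of the 54, 43 rose and 6 fell (23.9% higher and 21.8% lower over all genes), with a median of 0.53 in F1295A and 0.67 in WT. By level class 30 reached the WT level and 14 fell short (38.2% and 1.6% over all genes), and no member was called above WT. All 14 short genes were among the 40 members with a promoter matched by symbol. The composite element of ATF4 and C/EBP proteins, read here as TGATGNAA on either strand, was found in 1104 of the 35116 promoters (3.14%). Counted per gene and not per promoter, it was found in 6 of the 40 matched members, 4 of them short of WT, so these shares are in unlike units. The 2 shown, at the smallest adjusted p against WT, carry it in reverse: CHAC1 at chromosome 15, 40953232 to 40953299, and HERPUD1 at chromosome 16, 56931936 to 56932003, both on the plus strand (GRCh38.p14). The letters TGATG also form part of the X box core ACNGATG where its N is T.
CHAC1: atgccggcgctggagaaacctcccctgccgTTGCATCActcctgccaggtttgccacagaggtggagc
HERPUD1: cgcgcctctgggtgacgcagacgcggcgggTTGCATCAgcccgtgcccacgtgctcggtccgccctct

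ATF4 RNA itself reached the WT level, at 286, 304 and 303 FPKM in TKO, 547, 555 and 548 in F1295A and 549, 555 and 551 in WT. F1295A and WT overlapped fully there (log2 difference -0.00 ± 0.03, limma adjusted p = 0.971). CHAC1, which degrades glutathione, was at 2.39, 2.43 and 2.12 FPKM in TKO, at 13.6, 12.9 and 13.9 in F1295A and at 19.9, 19.3 and 19.1 in WT. It rose by 2.31 ± 0.06 from TKO yet stayed 0.51 ± 0.06 below WT (limma adjusted p = 7.57e-11 and 0.000827). SESN2, a stress sensor that restrains mTORC1, was at 4.34 ± 0.27, 14.1 ± 0.4 and 21.3 ± 0.9 FPKM in TKO, F1295A and WT. ATF3, a stress-induced factor of the same family, was at 1.301, 2.99 and 5.43 FPKM. CEBPB, a partner of ATF4, was at 12.2, 24.3 and 30.6 FPKM, and DDIT3, the factor CHOP, at 26.7, 34.2 and 42.7. TRIB3, a pseudokinase that CHOP induces, was at 11.9, 17.4 and 20.8 FPKM. In all of these the F1295A mean lay between TKO and WT and was called apart from both. Other short members were ASNS, asparagine synthetase (37.8, 75.2 and 83.6 FPKM), the leucine transporter chains SLC7A5 (75.1, 150 and 175) and SLC3A2 (91.9, 153 and 170), and HERPUD1, a factor of ER-associated degradation (139, 233 and 260). GARS, a transfer RNA synthetase, reached the WT level (92.4, 191 and 200), as did HSPA5, the chaperone BiP (184, 254 and 250). PHGDH, the first enzyme of serine synthesis, rose from 13.3 to 67.7 FPKM (WT 74.6) and PSAT1, the next enzyme, fell from 14.7 to 4.20 (WT 4.14). The number called below WT was 14 in the fit of all libraries, and 6 without WT replicate 1 or without F1295A replicate 2, 8 without WT replicate 3, and 9 without WT replicate 2 or F1295A replicate 3. Over all fits without 1 library the number ran from 6 to 16. On the values as deposited it was 4. The calls of ASNS and ATF3 against WT were lost without any 1 of the 6 F1295A and WT libraries, that of SLC3A2 without any of them but F1295A replicate 3, that of HERPUD1 without F1295A replicate 2, F1295A replicate 3 or WT replicate 1, and that of TRIB3 without F1295A replicate 2 or WT replicate 1. CHAC1 and SESN2 kept their call in every fit.

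Hypoxia and glycolysis genes missed the WT level most often among the lists with 40 or more tested genes. Under low oxygen, or when its hydroxylases are blocked, HIF raises glucose uptake, glycolysis and collagen hydroxylases. Of 41 tested genes, 33 rose and 1 fell in WT, while 21 rose and 4 fell in F1295A, a called share of 61% there against 45.6% over all genes. The median difference from TKO was 0.16 in F1295A and 0.40 in WT. F1295A was below WT in 16 genes and above it in none, a called share of 39% against 2.71% over all genes. By level class 11 were short, 4 missed, 1 was opposite and 11 were at the WT level. Over all genes 1.6% were short and 0.416% missed. The core of the hypoxia response element, ACGTG on either strand, is frequent: it was found in 6501 of the promoters (18.5%). Again counted per gene and not per promoter, and so in unlike units, it was found in 23 of 35 matched members, and 8 of those 23 were short. Of all 35 matched members, 11 were short. The core also fits inside some E boxes. The 2 short members with the smallest adjusted p against WT are shown: DDIT4 at chromosome 10, 72273769 to 72273833 on the plus strand, and P4HA1 at chromosome 10, 73096918 to 73096982 on the minus strand (GRCh38.p14).
DDIT4: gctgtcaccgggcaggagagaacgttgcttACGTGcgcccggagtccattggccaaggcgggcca
P4HA1: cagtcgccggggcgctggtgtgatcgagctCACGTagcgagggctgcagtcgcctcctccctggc

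DDIT4, the mTORC1 inhibitor REDD1, had the smallest adjusted p against WT of all short genes. It was at 37.7, 36.01 and 39.1 FPKM in TKO, at 71.9, 72.2 and 77.7 in F1295A and at 123, 122 and 123 in WT. The 3 groups were well apart, and F1295A lay 0.97 ± 0.04 above TKO and 0.73 ± 0.04 below WT (limma adjusted p = 6.38e-09 and 2.15e-05). P4HA1, a collagen prolyl hydroxylase, was at 6.18, 6.46 and 6.64 FPKM in TKO, 8.02, 8.37 and 8.01 in F1295A and 11.8, 12.95 and 12.4 in WT. It covered 35.6% of the WT log2 difference. PDK1, which keeps pyruvate out of mitochondria, was at 11.01, 14.9 and 20.3 FPKM in TKO, F1295A and WT, and HK2, the first kinase of glycolysis, at 15.7, 19.8 and 25.4. ALDOC and ALDOA, aldolases, were at 7.34, 19.7 and 27.2 and at 1603, 2155 and 2474 FPKM, and the call of ALDOA against WT was lost without F1295A replicate 2 or WT replicate 1. NDRG1, a differentiation gene and classical HIF target, was at 26.2, 28.0 and 28.0 FPKM in TKO, 29.4, 25.8 and 26.97 in F1295A and 39.1, 40.7 and 38.2 in WT. F1295A overlapped TKO fully for NDRG1 (log2 difference 0.00 ± 0.05, limma adjusted p = 0.996) and was 0.52 ± 0.05 below WT (adjusted p = 0.000662). LDHA, lactate dehydrogenase A, missed as well, at 797 ± 7, 816 ± 16 and 946 ± 23 FPKM. KDM3A, a histone demethylase that HIF induces, moved in opposite directions, from 20.9 ± 1.0 in TKO to 18.6 ± 1.0 in F1295A and 24.3 ± 1.1 in WT. Its fall from TKO was lost without TKO replicate 2, F1295A replicate 1 or F1295A replicate 2. ENO1 and GAPDH, abundant glycolytic enzymes, reached the WT level (1275 to 1923 FPKM, WT 2111, and 2354 to 3408 FPKM, WT 3610). ADM, adrenomedullin, a HIF target, fell from 4.75 to 0.101 FPKM, with 0.289 in WT. The number called below WT was 10 without WT replicate 1 or without F1295A replicate 2, and it was 5 in the fit of unscaled values. Over all fits without 1 library it ran from 10 to 19.

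**Figure D3:**
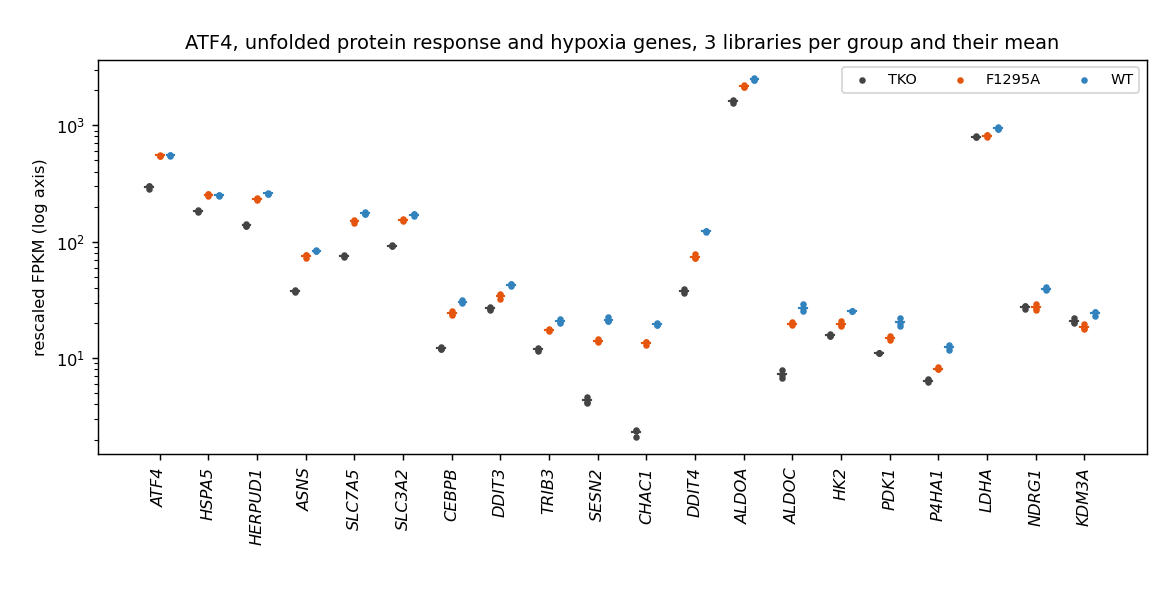
Rescaled FPKM on a log axis for 11 ATF4 and unfolded protein response genes (ATF4 to CHAC1) and 9 hypoxia and glycolysis genes (DDIT4 to KDM3A), with 1 point per library and a bar at each mean of 3. F1295A points coincide with WT for ATF4 and HSPA5, lie between TKO and WT from HERPUD1 to P4HA1, and coincide with TKO for NDRG1.

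Genes tied to t(4;14) and NSD2 in myeloma rose in most cases, several of them short of WT. Of 20 tested, 14 rose and 3 fell, a called share of 85% against 45.6% over all genes. By level class 10 reached WT, 5 fell short (1.6% over all genes) and 1 exceeded it. The median was 0.51 in F1295A against 0.69 in WT. The number short was 2 without F1295A replicate 2 and 3 without F1295A replicate 3, WT replicate 1 or WT replicate 3. Over all fits without 1 library it ran from 2 to 7. CA2, carbonic anhydrase 2, was at 0.578, 0.821 and 0.659 FPKM in TKO, 5.81, 5.38 and 5.34 in F1295A and 9.43, 8.65 and 8.36 in WT. RRAS2, a RAS-like GTPase, was at 0.135, 2.75 and 4.72 FPKM in TKO, F1295A and WT, and its call against WT was lost without F1295A replicate 2, F1295A replicate 3 or any 1 WT library. MET, the receptor of hepatocyte growth factor, was near zero in TKO and at 0.402, 0.667 and 0.331 FPKM in F1295A against 1.56, 1.34 and 1.61 in WT. These low levels still left F1295A and WT without overlap (log2 difference -1.07 ± 0.15, limma adjusted p = 0.00343). ITGB7, the integrin beta 7 chain that holds myeloma cells in the marrow, was abundant and short, at 476 ± 14, 749 ± 11 and 843 ± 9 FPKM, a call against WT that was lost without F1295A replicate 2, WT replicate 1 or WT replicate 3. FGFR3, the receptor on the same translocation, was at 414 ± 14, 443 ± 18 and 508 ± 3, and its small rise in F1295A was lost without TKO replicate 2, TKO replicate 3 or F1295A replicate 3. Its call against WT was lost without F1295A replicate 2. PAK1, a kinase of the actin cytoskeleton, was at 0.155, 2.82 and 4.34 FPKM and was not called apart from WT (adjusted p = 0.0784), so it counts as reaching WT by the rule although its mean was lower. SERPINE2, a protease inhibitor, fell and exceeded WT, at 17.8, 9.65 and 12.8 FPKM.

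Plasma cell identity and antibody secretion genes gave a mixed count, with 80% of those tested called from TKO against 45.6% over all genes. Of 20 tested, 9 rose and 7 fell from TKO, 10 reached WT, 5 fell short and 1 missed. XBP1, the secretory program's transcription factor, was at 259 ± 4, 395 ± 5 and 431 ± 4 FPKM in TKO, F1295A and WT. PRDM1, the plasma cell regulator BLIMP1, was at 28.6, 41.5 and 46.4 FPKM, and TNFRSF17, the receptor BCMA, at 102, 142 and 164. TXNDC5 and DERL3, of disulfide formation and retrotranslocation in the endoplasmic reticulum, were at 263, 402 and 471 and at 65.8, 79.4 and 94.9 FPKM. IRF4, the factor on which myeloma cells depend, missed, at 95.1 ± 1.3, 104 ± 7 and 126 ± 1. JCHAIN reached WT, at 1742, 3939 and 3813 FPKM. MYC, a growth-promoting factor of the immediate early list, was short at 155 ± 1, 206 ± 3 and 240 ± 9 FPKM. The 6 plasma cell genes below WT became 2 without WT replicate 1, WT replicate 3 or F1295A replicate 3, and 3 without WT replicate 2 or F1295A replicate 1, and none was called on the values as deposited. The calls against WT of XBP1, PRDM1, TNFRSF17 and IRF4 were each lost in 5 or more of the fits without 1 library.

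**Figure D4:**
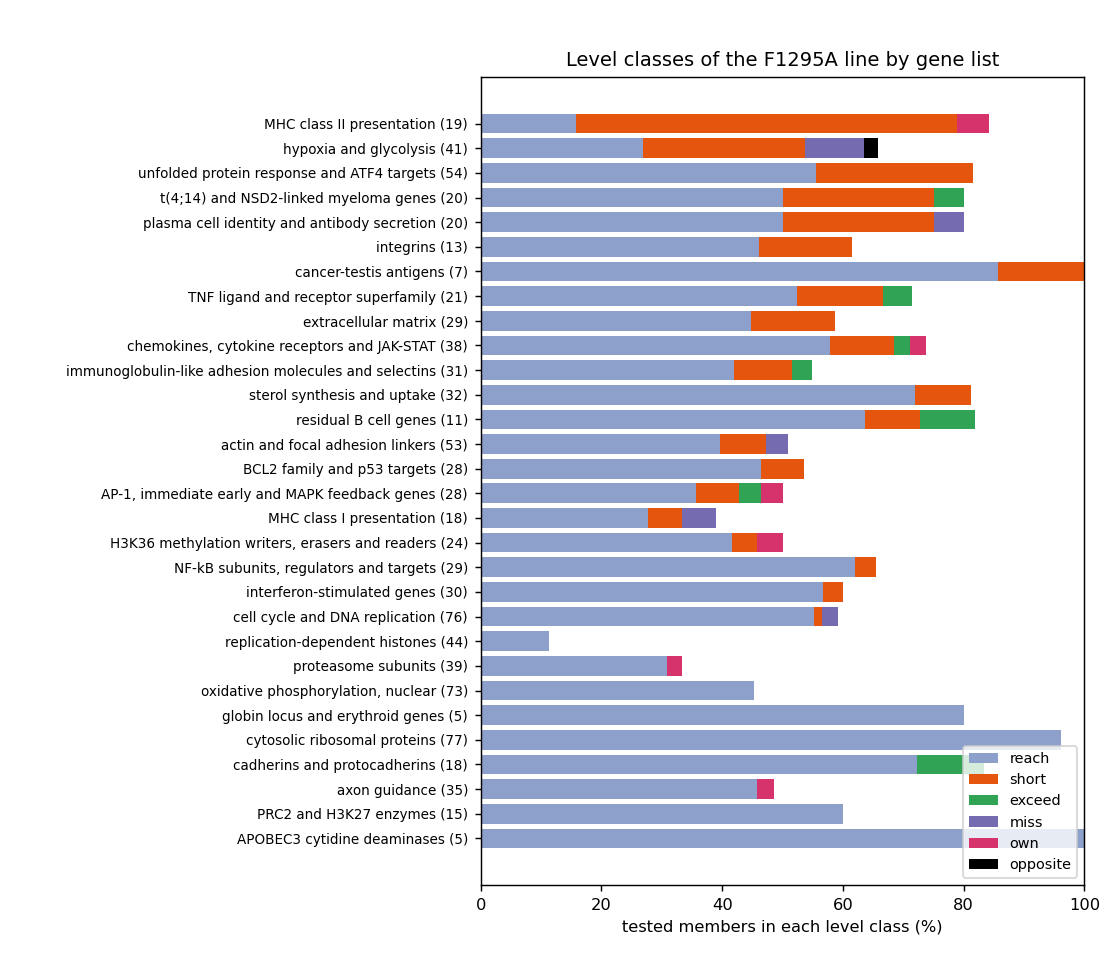
Share of the tested members of each of 30 gene lists in each level class, in percent, with the number tested in parentheses and the lists ordered by the share short of WT. MHC class II presentation has the largest share short of WT, 12 of 19, and cytosolic ribosomal proteins have 74 of 77 at the WT level.

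Adhesion, matrix and actin lists each held genes that rose and genes that fell, as did all tested genes (23.9% higher and 21.8% lower). Called from TKO were 61.5% of the integrins, 67.7% of the immunoglobulin-like adhesion molecules and selectins and 62.1% of the matrix genes. Of 13 integrins, 5 rose and 3 fell, and ITGB1, the common beta 1 chain (42.7, 48.3 and 55.4 FPKM in TKO, F1295A and WT), was short beside ITGB7. The call of ITGB1 against WT was lost without any 1 of the 6 F1295A and WT libraries. Of 31 immunoglobulin-like adhesion molecules and selectins, 7 rose and 14 fell, and 3 were short. CD48, a ligand of the natural killer receptor 2B4, was at 87.1, 91.9 and 92.01 FPKM in TKO, 38.0, 36.5 and 36.4 in F1295A and 27.5, 28.2 and 27.5 in WT. The groups were apart throughout, by -1.28 ± 0.04 from TKO and 0.41 ± 0.04 from WT (limma adjusted p = 2.49e-10 and 0.00026). L1CAM, a neural adhesion molecule, fell from 16.8 to 4.75 FPKM (WT 3.35), and CNTN1, contactin 1, rose from 0.293 to 4.74 (WT 6.30). The calls of L1CAM and CNTN1 against WT were narrow (limma adjusted p = 0.0438 and 0.0459) and each was lost in 10 of the 12 fits without 1 library, and the number short in this list was 1 in 9 of those fits. SELPLG, the selectin ligand PSGL-1, exceeded WT in its fall, at 63.6 ± 0.9, 49.0 ± 0.5 and 54.9 ± 0.4 FPKM. Of 29 matrix genes, 13 rose and 5 fell, and COL6A1, a collagen VI chain, was at 19.1 ± 0.7 FPKM in TKO, 4.94 ± 0.58 in F1295A and 2.79 ± 0.25 in WT. Of 53 actin and focal adhesion genes, 16 rose and 12 fell, a called share of 52.8% near the 45.6% over all genes. ENAH and EVL, Ena/VASP proteins that extend actin filaments, were short at 0.541, 1.21 and 3.00 and at 13.9, 24.9 and 30.5 FPKM, and so was TES, testin, a LIM protein of focal adhesions (11.95, 23.0 and 27.3). The call of TES against WT was lost without any 1 of the 6 F1295A and WT libraries, and that of EVL without F1295A replicate 2, WT replicate 1 or WT replicate 3. LCP1, the leukocyte plastin that bundles actin, fell short in the other direction (107, 88.6 and 66.6). ZYX, zyxin, which sits on stretched actin fibres, missed, at 21.6 ± 0.9, 21.8 ± 1.7 and 29.4 ± 1.0 FPKM.

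Other genes far from WT were found by the size of the difference. TNFRSF18, the receptor GITR, was at 36.5, 34.7 and 35.8 FPKM in TKO, 7.12, 7.88 and 8.53 in F1295A and 3.60, 3.39 and 4.55 in WT. JDP2, a repressor of AP-1, was at 0.225, 3.16 and 6.50 FPKM in TKO, F1295A and WT, and INHBE, an inhibin beta chain, at 0.766, 4.35 and 8.36. CLGN, calmegin, a chaperone best known from the testis, was at 1.92 ± 0.07, 5.97 ± 0.30 and 10.8 ± 0.4 FPKM. TMSB15A, a thymosin that binds actin monomers, was at 2.35, 7.80 and 14.2 FPKM, and RAI14, an actin-binding protein, at 0.619, 3.59 and 6.97. The call of INHBE against WT was lost without any 1 of the 6 F1295A and WT libraries, and that of RAI14 without F1295A replicate 2, F1295A replicate 3, WT replicate 2 or WT replicate 3. These 6 genes covered between 63.9% (CLGN) and 71.5% (JDP2) of the WT log2 difference, a description of genes chosen by their distance from WT.

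Among the genes past the WT level, DUSP5 had the smallest adjusted p. DUSP5, a phosphatase that switches off nuclear ERK, was at 11.9, 11.2 and 11.3 FPKM in TKO, 4.38, 4.52 and 4.18 in F1295A and 7.31, 7.07 and 7.08 in WT. F1295A lay below both groups without overlap, by -1.30 ± 0.05 from TKO and -0.66 ± 0.05 from WT (limma adjusted p = 2.52e-09 and 7.15e-05). MYCN, the neural MYC paralog, was at 7.92 ± 0.31, 1.95 ± 0.13 and 3.02 ± 0.21 FPKM, and DPYSL3, a regulator of neurite outgrowth, at 17.2 ± 0.1, 9.50 ± 0.75 and 14.1 ± 0.3. LGMN, the lysosomal protease legumain, was at 17.1, 8.68 and 12.3 FPKM, and PIM1, a kinase that promotes survival, at 22.2, 12.9 and 16.2. Upward, TNFRSF11A, the receptor RANK, was at 1.18 ± 0.12, 7.94 ± 0.19 and 5.84 ± 0.28 FPKM, ENTPD1, the ectoenzyme CD39, at 1.32, 6.20 and 4.42, and CD37, a tetraspanin of B cells, at 5.57, 24.9 and 19.7. The calls of PIM1 and CD37 against WT were lost without any 1 of the 6 F1295A and WT libraries, that of CD37 also without TKO replicate 3 or D1240A replicate 1, and that of ENTPD1 without F1295A replicate 1, F1295A replicate 3, WT replicate 1 or WT replicate 2. Genes past WT numbered 17 without WT replicate 1, 19 without WT replicate 3, 22 without WT replicate 2, 18 without F1295A replicate 2, 25 without F1295A replicate 3 and 28 without F1295A replicate 1. Without D1240A replicate 2 they numbered 57.

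Further genes missed WT, ran against it or moved in F1295A alone. CASP1, the inflammatory caspase, was at 12.6 ± 1.2 FPKM in TKO, 10.2 ± 1.4 in F1295A and 6.34 ± 0.83 in WT, and MYEOV, a gene overexpressed in some myelomas, at 2.69, 2.82 and 1.59. The call of CASP1 against WT was lost without F1295A replicate 2, F1295A replicate 3 or WT replicate 1, and that of MYEOV without F1295A replicate 1, F1295A replicate 2 or any 1 WT library. PDE4D, a cyclic AMP phosphodiesterase, stayed at 6.26 ± 0.54 FPKM, with 5.49 ± 0.30 in TKO and 9.30 ± 0.52 in WT. LAMP5, a lysosome-associated membrane protein of neurons and plasmacytoid dendritic cells, ran against WT: it was at 5.30, 5.47 and 5.61 FPKM in TKO, 6.94, 8.18 and 8.02 in F1295A and 3.44, 3.64 and 2.98 in WT. CBLN2, a synaptic organizer, was at 8.78, 10.4 and 7.23 FPKM in the same order, and its rise from TKO was lost without TKO replicate 2, TKO replicate 3 or any 1 F1295A library. Moved in F1295A alone were JUN, the AP-1 subunit, at 3.96, 3.57 and 3.78 FPKM in TKO, 1.66, 1.29 and 2.04 in F1295A and 3.28, 2.82 and 3.08 in WT, and KATNAL2, a katanin-like microtubule-severing protein, at 8.38 ± 0.42, 3.71 ± 0.17 and 7.56 ± 1.44. For JUN the F1295A libraries lay below all others (log2 difference -0.995 ± 0.115 from TKO and -0.73 ± 0.12 from WT, limma adjusted p = 2.41e-05 and 0.00717). FHL1, a LIM protein of muscle, was at 24.1, 14.6 and 21.7 FPKM, and its call against WT was lost without any 1 of the 6 F1295A and WT libraries, with no filter and with the replicate block. Genes that missed WT numbered 22 without WT replicate 1, 26 without WT replicate 3, 28 without F1295A replicate 2, 32 without F1295A replicate 3, 36 without WT replicate 2 and 95 without D1240A replicate 2, and genes of F1295A alone 15, 17, 16, 23, 25 and 62 in the same fits.

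Cytosolic ribosomal protein genes rose to the WT level in nearly all cases, while other growth-related lists reached it in part. The share called from TKO was 98.7% of ribosomal protein, 84.4% of sterol, 64.5% of cell cycle and 11.4% of histone genes. Over all genes 45.6% were called and 38.2% reached WT. Of 77 cytosolic ribosomal protein genes, 75 rose and 1 fell from TKO, 74 reached WT and none was called apart from it, with a median of 0.48 in F1295A and 0.47 in WT. RPL4 rose from 1716 to 2629 FPKM and RPS12 from 1795 to 3140. Of 32 sterol synthesis and uptake genes, 26 rose and 1 fell, and 23 reached WT. SCD, which makes monounsaturated fatty acids, was among the 3 short of it, at 32.8 ± 0.7, 104 ± 4 and 119 ± 1 FPKM, with INSIG1, which holds back the sterol sensor SCAP (64.7, 127 and 147), and MSMO1, a sterol oxidase (26.5, 55.5 and 64.4). The call of MSMO1 against WT was lost without any 1 of the F1295A libraries, WT replicate 1 or WT replicate 3. Of 76 cell cycle and DNA replication genes, 5 rose and 44 fell, by small amounts (median -0.17), and 42 reached WT. MKI67, the proliferation marker, was at 79.1 ± 2.5, 69.0 ± 5.2 and 68.3 ± 2.2 FPKM, a fall that was lost without TKO replicate 1 or F1295A replicate 3. Of 44 replication-dependent histone genes, 5 fell in the fit of all libraries, and 29 of 41 without D1240A replicate 2, with medians of -0.55 and -0.58. Poly(A) RNA was sequenced, so how much histone RNA without a poly(A) tail these values include is unknown.

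Genes of H3K36 and H3K27 methylation were called from TKO in 54.2% and 66.7% of cases, against 45.6% over all genes. Over all genes, those at the WT level make up 83.7% of the number called in F1295A. Of 24 genes that write, erase or read H3K36 methylation, 3 rose and 10 fell from TKO, 10 reached WT, and 2 were called below it, NSD2 and KDM4B. KDM4B, a demethylase of H3K9 and H3K36, was at 8.84 ± 0.47 FPKM in TKO, 7.14 ± 0.44 in F1295A and 9.08 ± 0.46 in WT, a call against WT lost without F1295A replicate 2 or WT replicate 1. NSD1, a paralog of NSD2 with the same activity, rose from 9.36 to 14.7 FPKM (WT 14.5), and SETD2, the enzyme of H3K36 trimethylation, was at 10.9 ± 0.1 and 10.6 ± 0.8. DNMT3B, a DNA methyltransferase that reads H3K36 methylation, fell from 10.4 to 5.44 FPKM (WT 5.87). Of 15 PRC2 and H3K27 genes, 3 rose and 7 fell, 9 reached WT and none was called apart from it. EZH2, the methyltransferase of PRC2, was at 94.0, 96.8 and 97.3 FPKM in TKO, 66.7, 69.9 and 70.0 in F1295A and 68.8, 67.3 and 68.7 in WT. F1295A and WT overlapped for EZH2, and both were below TKO. PHF19, the PRC2 accessory protein that binds methylated H3K36, fell from 79.1 to 48.9 FPKM (WT 54.5), and KDM6A, an H3K27 demethylase on chromosome X, from 13.2 to 6.48 (WT 6.92).

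Neighbouring genes moved together along some chromosomes, with like medians in F1295A and WT, which share their control. Over windows of 50 neighbouring tested genes, 35 of 284 had a median difference between F1295A and TKO of 0.2 or more in size on the log2 scale, 13 higher and 22 lower. WT had 39 such windows, and between F1295A and WT there were none. The highest medians were on chromosome 13 (0.62 in F1295A and 0.59 in WT, with 47 of 50 genes higher in F1295A) and at the end of the long arm of chromosome 5 (0.58 and 0.56). The lowest were in 2 windows of chromosome X (-0.88 in F1295A and -0.89 in WT, with 2 and 5 of 50 genes higher), where 7 of 9 windows were lower by 0.2 or more. Gene copy number was not measured here, and its part in these blocks was not tested. Genes named above that lie in such windows include KDM6A and FHL1 on chromosome X and NSD1 on chromosome 5. With window medians removed, 5969 genes were called between F1295A and TKO and 336 between F1295A and WT, and NSD1 (adjusted p = 0.574), KDM6A (adjusted p = 0.528) and FHL1 (adjusted p = 0.336) lost their call against TKO.

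**Figure D5:**
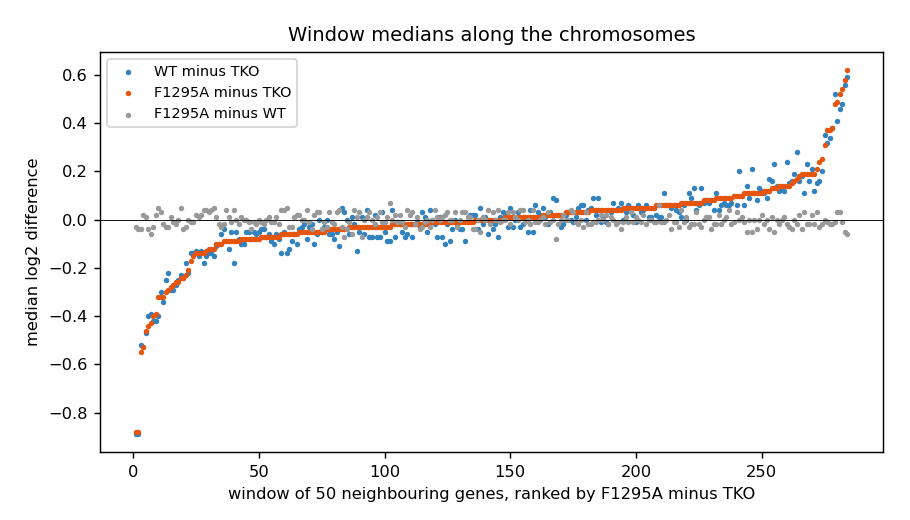
Median log2 difference over 284 windows of neighbouring tested genes, ranked by F1295A minus TKO, with WT minus TKO and F1295A minus WT for the same windows. F1295A medians run from -0.88 to 0.62, and the medians of F1295A minus WT stay between -0.08 and 0.07.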

How the data were processed

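Poly(A) RNA of TKO cells and 3 vector lines was sequenced, with 3 biological replicates each. Per the submitters' processing notes, Trimmomatic 0.36, FastQC 0.11.4, STAR 2.7.9a, RSEM 1.3.1 and DESeq2 were used with GRCh38. Neither the annotation release nor the strand setting of the counting is stated in those notes. The authors deposited FPKM per gene, normalised to gene length and library total, so depth is unknown and no count test was run. After leaving out 7089 structural RNA features, libraries were rescaled by a trimmed mean (30% cut from each side, genes at 1 FPKM or more). Features at 0.5 FPKM or more in 3 or more libraries were tested, 14411 in all. limma 3.58.1 (R 4.3.3, trended prior) was run on log2(FPKM + 0.5) with all 12 libraries in 1 fit, Benjamini-Hochberg adjustment over all tested genes and a threshold of 0.05 with no minimum fold. Fold changes of low genes are understated on that scale. On simulated data for F1295A minus TKO (14411 genes), 86 of 100 genes changed 1.5-fold and 99 of 100 changed 3-fold were recovered. There were 11 false calls. The simulated spread was taken without D1240A replicate 2, which the fit includes, and genes of low mean were not among those changed. Whether these rates hold for the fit of the 12 deposited libraries or for low genes was not tested.

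The members and gene lists were chosen with earlier results of these data known. The named-genes rule took NSD2, the 10 largest called differences from TKO in each direction and the 8 largest of each level class at a mean of 2 FPKM or more, the 4 members of each list with the smallest adjusted p, and all H3K36 genes. The text names fewer of them, and the other named genes were chosen after their values were seen. Promoters were read from RefSeq (GRCh38.p14, matched by symbol) and the NSD2 coding sequence from GENCODE 29. Alternatives were another scaling, filters, pseudocounts, library weights, a replicate block, 3 groups in the fit, window medians removed and each library left out. Figures used Python 3.11.15 and matplotlib 3.10.9.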

Additional observations from a re-analysis of the deposited data

Results flagged for a closer look

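Features of structural RNA (ribosomal, small nuclear and similar) were left out of every comparison and drew attention as a signal outside the main measurement. Their summed deposited FPKM had a mean of 20734 in F1295A (20289 to 21223 over 3 libraries), above every TKO library (15991 to 17544), and was 19509 to 27015 in WT. D1240A replicate 2 held 1576773. The part of these sums in the results was not tested, and the fit with structural features kept is among the alternatives.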

How the results depend on the processing

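Depth is unknown, which limits every low gene. On the values as deposited, without rescaling, 89 genes were called between F1295A and WT (17 higher, 72 lower) and 63 between F1295A and D1240A, with 58 short, 6 exceeding, 14 missing, 1 opposite and 7 of F1295A alone, and the higher share of calls from TKO was 44.4% in place of 52.3%. There NSD2 stood at -0.245 against WT (limma adjusted p = 0.204). With no filter, 432 genes differed between F1295A and D1240A and 26 exceeded WT. With library weights 611 genes differed between F1295A and WT, with 67 exceeding, 122 missing, 5 opposite and 83 of F1295A alone. A minimum of 2-fold left 748 genes for F1295A against TKO, 11 against WT, 7 against D1240A and 948 for WT against TKO, with 650 reaching, 2 short, 0 exceeding, 5 missing, 0 opposite, 2 of F1295A alone and 385 undecided. With window medians removed NSD2 was at -0.192 against WT (limma adjusted p = 0.0645), 5 genes were opposite, and 3 named genes changed sign against TKO: DNMT1 (0.023, adjusted p = 0.651), PGAM1 (-0.273, adjusted p = 6.32e-05) and BNIP3 (-0.053, adjusted p = 0.687). The cause of these changes was not tested.

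Deviations of samples of the same replicate number correlated weakly, at -0.054 to 0.085 over all groups and -0.041 to 0.028 for F1295A and TKO. Same-number values were all positive for TKO with WT (0.035 to 0.061) and TKO with D1240A (0.057 to 0.071). Values of unlike numbers in those 2 comparisons were all negative. That follows in part from the calculation, since deviations from a group mean cancel out within the group, so it is not a separate observation. What links same-number samples was not tested. With the replicate block, 6351 genes were called between F1295A and TKO, 272 between F1295A and WT and 525 between F1295A and D1240A, with 28 genes of F1295A alone. Leaving out 1 library at a time gave 5705 to 6852 calls for F1295A against TKO, 149 to 514 against WT, 309 to 1223 against D1240A and 6361 to 7430 for WT against TKO. The calls against WT were 149 without WT replicate 1, 228 without WT replicate 2, 172 without WT replicate 3, 256 without F1295A replicate 1, 167 without F1295A replicate 2 and 202 without F1295A replicate 3. They rose to 514 without D1240A replicate 2. Over the same fits 4816 to 5664 genes reached WT, 92 to 283 were short, 17 to 57 exceeded, 22 to 95 missed, 1 to 9 were opposite, 15 to 62 were of F1295A alone and 1856 to 2389 were undecided. NSD2 lay between 1.41 and 1.472 against TKO and between -0.248 and -0.195 against WT. Of 222 named genes called against TKO, 28 lost the call in at least 1 alternative, and of 115 called against WT, 86 did, while 29 kept it in all 23.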
